A study of Mus musculus with 10 samples.

Results

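CD24medCD49f-/low luminal cells of the mouse mammary gland were compared with basal cells. The comparison used 8 of the 10 arrays of the series: both arrays of CD24medCD49f-/low cells, and 6 arrays of 3 basal populations with 2 arrays each. The basal populations were CD24medCD49fmed, Thy-1+CD24medCD49fhigh and Thy-1-CD24medCD49fhigh. Groups were taken from the sample titles. Every population came from the glands of virgin FVB females aged 6 to 8 weeks, with no treatment or transgene named in the labels, and was sorted by flow cytometry on CD24, CD49f (integrin α6) and Thy-1 after staining for the blood and endothelial surface proteins CD45, Ter119 and CD31. The study's methods also list an antibody to CD140α, a surface protein of fibroblasts. The other 2 arrays, of CD24highCD49fmed luminal cells, served for the shared estimate of error and as a second luminal population for comparison. The study's text describes a CD24lowCD49fmed myoepithelial gate where the labels give CD24medCD49fmed, and the label was kept here. The labels do not say whether replicate arrays stem from different animals, and p-values therefore measure the spread between these samples, which may be technical.

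The mammary duct is a bilayer. Luminal cells line the lumen, carry simple keratins, tight junctions and apical transporters, and include cells with receptors for oestrogen and progesterone as well as progenitors of milk-secreting cells. Basal cells lie on the basement membrane, which they help to build. They carry stratified keratins and the contractile apparatus of smooth muscle, with which they squeeze milk along the duct.

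Values are log2 intensities that the authors centred probe set by probe set, with 0 as the mean of the 10 arrays. A value of 1 is therefore a doubling over that probe set's own mean, and no level can be compared between genes. The table held 2560 named genes, obtained by averaging the probe sets of each gene that had exactly 1 gene symbol, and 372 other probe sets, which gives 2932 tested features. All of them had passed the authors' filter for variation between arrays, so a share of features called is not a share of all genes. Differences below are the luminal mean minus the mean of the 3 basal population means (log2, 2 luminal and 6 basal arrays, ± SE), with two-sided p-values from limma adjusted by the Benjamini-Hochberg method over all 2932 features. Because RNA came from sorted bulk samples, fewer cells of a type and less RNA per cell cannot be told apart.

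The luminal arrays stood apart from each other. Over all features they correlated at 0.29, while the arrays of a population correlated at 0.64 in CD24medCD49fmed, 0.43 in Thy-1+CD24medCD49fhigh, 0.63 in Thy-1-CD24medCD49fhigh and 0.92 in CD24highCD49fmed. Luminal replicate 1 correlated at 0.76 and 0.67 with CD24highCD49fmed replicates 1 and 2, and luminal replicate 2 at 0.39 and 0.54. Each of these values was above the correlation of the luminal arrays with each other. The luminal arrays were more than 1 log2 unit apart in 962 of the 2560 named genes, against 320, 516 and 444 genes in the basal populations in the order given above and 100 genes in CD24highCD49fmed. The median difference of named genes from the basal mean was -0.54 in luminal replicate 1 and 0.13 in replicate 2. The SE and p-values below rest on a spread pooled over all 5 populations for each feature. That spread was assumed for the luminal arrays too, although they were farther apart than the arrays of any other population. Values are therefore given for both luminal arrays, and many list counts also with each luminal array alone.

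Basal genes of the contractile, matrix and keratin programmes were lower in both luminal arrays, and genes of hormone sensing, apical and progenitor luminal cells were higher. limma called 1342 features (45.8%). CD24medCD49f-/low cells had higher values in 536 of them (18.3%) and lower values in 806 (27.5%). Among named genes, 459 were higher, 732 were lower and 1369 were not called. Both luminal arrays lay above all 6 basal arrays for 24.1% of features and below all of them for 28.4%. Of the 459 named genes called higher, 420 had both luminal arrays above every basal array, and of the 732 called lower, 680 had both below. The median difference over all features was -0.17.

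Which genes were called depended on the luminal array used. With luminal replicate 2 alone, 1004 features (34.2%) were called, and with replicate 1 alone 1874 (63.9%). A lone array was assumed to vary like the arrays of the other groups. Of the named genes called with both arrays, 186 higher and 461 lower ones were called with each array alone. A further 179 higher and 224 lower ones were called with replicate 1 alone and not with replicate 2 alone. The opposite held for 80 higher and 33 lower ones. limma weights per array, which came out lowest for the luminal arrays at 0.36, left 513 features called, 147 higher and 366 lower. Rank products, the test named in the methods of the study, was also run. At an unadjusted p under 0.01 it called 249 features, 115 higher and 134 lower. After quantile normalisation the split was 752 higher and 711 lower.

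**Figure D1:**
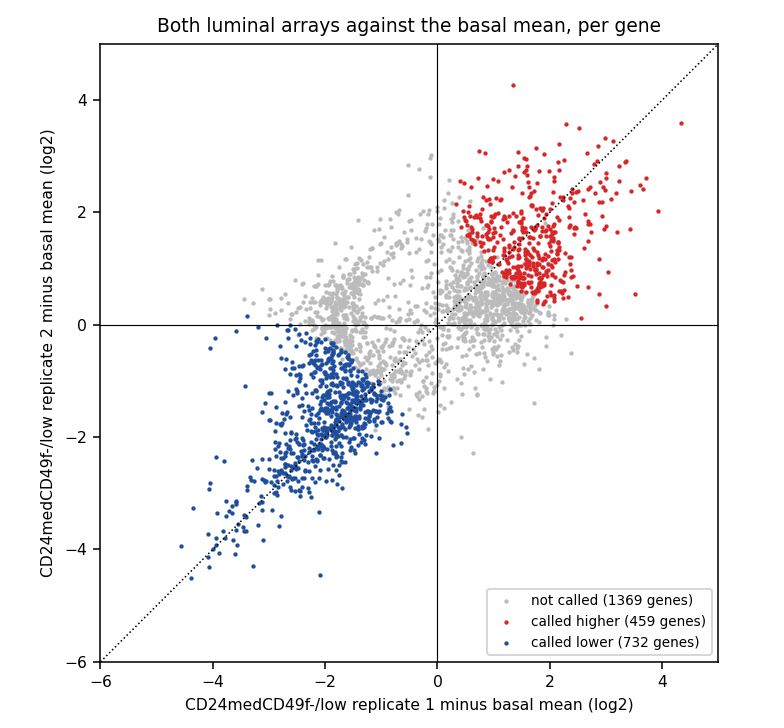
Difference of luminal replicate 1 (horizontal axis) and replicate 2 (vertical axis) from the basal mean (log2) for each of the 2560 named genes, with called genes coloured and the line of equality dotted. Called genes fill the upper right (459 higher) and lower left (732 lower), and 176 genes that were below the basal range in replicate 1 and above it in replicate 2 lie at the upper left.

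The genes with the largest increases were led by Scara5, a scavenger receptor for ferritin. Scara5 was at 2.70 and 1.96 in the luminal arrays and at -2.22 to -1.15 (median -1.63) in the basal arrays, a difference of 3.96 ± 0.44, adjusted p 2.10e-06. Agtr1a, a receptor for angiotensin II, was at 1.83 and 2.17 against -1.49 to -0.39 (median -1.28) (3.15 ± 0.42, adjusted p 1.27e-05). Htr4, a serotonin receptor, was at 1.08 and 2.07 against -1.85 to -0.53 (median -1.75) (3.01 ± 0.49, adjusted p 8.78e-05). These genes were chosen for the absence of overlap between luminal and basal arrays. Trpc6, a cation channel called higher by 2.98, was left out of them because replicate 2, at 0.69, was within the basal range. Arg2, a mitochondrial arginase, was at 2.04 and 1.6 against -2.27 to -0.17 (median -1.35) (3.12 ± 0.50, adjusted p 7.82e-05). Sgms2, a sphingomyelin synthase, was at 1.87 and 1.46 against -2.16 to -0.52 (median -1.57) (3.03 ± 0.42, adjusted p 1.82e-05). Podxl, a sialomucin of apical membranes, was at 1.23 and 2.52 against -2.06 to 0.11 (median -1.17) (2.93 ± 0.50, adjusted p 1.58e-04). The differences of Tlcd4 (3.20), Zfp979 (3.16) and Fgg (3.01), the last of which encodes fibrinogen gamma, were of like size.

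Hormone sensing genes were higher as a group. Of 24 genes listed, 14 were in the table, 8 were called higher and 1 lower, against 18.3% and 27.5% of all features. The median difference was 2.18. The list's median was 1.55 above the basal mean in luminal replicate 1 and 2.35 above it in replicate 2. Its centred median was 0.75 and 1.41 in the luminal arrays and 0.83 and 1.01 in the CD24highCD49fmed arrays. Foxa1, which opens chromatin for the oestrogen receptor, was at 2.06 and 1.62 against -3.43 to 0.52 (median -1.59) (3.14 ± 0.71, adjusted p 0.00166). The receptors themselves followed. Esr1, the oestrogen receptor, was at 0.92 and 1.67 against -1.72 to 0.12 (median -0.90) (2.14 ± 0.47, adjusted p 0.00137). Pgr, the progesterone receptor, was at 1.49 and 1.5 against -1.84 to -0.03 (median -0.91) (2.41 ± 0.45, adjusted p 3.27e-04). Neither receptor's luminal arrays overlapped the basal ones.

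Tnfsf11, the ligand RANKL that carries the progesterone signal to neighbouring cells, differed between the luminal arrays. It was at 0.58 and 3.50 against -1.08 to -0.40 (median -0.77) (2.80 ± 0.54, adjusted p 4.68e-04), so that both arrays were above the basal range but replicate 2 was far higher. Prom1, which encodes CD133, a surface marker of hormone sensing luminal cells, was at 2.0 and 1.32 against -2.49 to 0.14 (median -1.28) (2.90 ± 0.60, adjusted p 7.49e-04). Tox3, a nuclear protein linked to oestrogen responsive transcription, was at 2.26 and 1.02 against -2.37 to 0.04 (median -1.75) (3.04 ± 0.58, adjusted p 4.24e-04). Tbx3, a regulator of hormone sensing cells, was at 0.22 and 1.07 against -1.01 to 0.10 (median -0.36) and was not called (1.03 ± 0.44, adjusted p 0.0586). Igf1r, the receptor of insulin-like growth factor 1, was the member called lower (-1.10 ± 0.43, adjusted p 0.04). Its luminal values were -1.06 and -0.06, against 0.19 to 1.04 (median 0.52). With replicate 2 alone, 13 of the 14 genes were called higher, and with replicate 1 alone 8 were.

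Basal arrays differed among themselves in the luminal genes. CD24medCD49fmed replicate 3 and Thy-1+CD24medCD49fhigh replicate 2 had the highest hormone sensing medians of the basal arrays, at -0.19 and 0.15, while their partners were at -1.61 and -1.12. In Foxa1 these arrays were at 0.45 and 0.52, and their partners at -3.43 and -2.15. Without both arrays, an alternative chosen after seeing the data, 9 hormone sensing genes were called higher and 0 lower, and 1194 features were called in all. Their part in the differences was not tested beyond this.

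General luminal epithelial genes were split between the luminal arrays. Of 25 listed, 20 were in the table, 10 were called higher, against 18.3% of all features, and 0 lower. The median difference was 1.23. The count was 15 higher with replicate 2 alone, 8 higher and 1 lower with replicate 1 alone, and 4 higher with array weights. The list's median was 0.47 above the basal mean in replicate 1 and 1.92 above it in replicate 2, where all 20 genes exceeded every basal array. In replicate 1, 8 did so. Over the 2560 named genes both luminal arrays were above the basal range in 609. Replicate 1 was above it with replicate 2 inside or below it in 296 and 22. Replicate 2 was above it with replicate 1 inside or below it in 149 and 176. Cldn8, a tight junction protein, was high in both, at 2.15 and 1.03 against -2.21 to -0.51 (median -1.52) (3.04 ± 0.50, adjusted p 9.80e-05). Ehf, an epithelial ETS factor, was at 0.52 and 1.69 against -2.03 to -0.14 (median -1.28) (2.17 ± 0.49, adjusted p 0.00166). Marveld2, which seals contacts between 3 cells, was at 0.65 and 1.51 against -1.57 to 0.35 (median -0.95) (1.92 ± 0.48, adjusted p 0.00357). Grhl1, a grainyhead transcription factor, was at 1.10 and 0.86 against -1.46 to -0.40 (median -0.73) (1.79 ± 0.43, adjusted p 0.00249).

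The simple keratins did not separate the groups as cleanly. Krt18 was at 0.45 and 1.08 against -1.92 to 0.60 (median -0.67), and it was called (1.34 ± 0.54, adjusted p 0.0472) although replicate 1 was within the basal range. With replicate 1 alone its adjusted p was 0.158. Krt19 was not called. It was at -0.99 and 1.75 in the luminal arrays and at -1.89 to 1.56 (median -0.45) in the basal arrays (0.64 ± 0.78, adjusted p 0.478), so that replicate 1 was within the basal range and replicate 2 above it. With replicate 1 alone its difference was -0.73. In Krt19, CD24medCD49fmed replicate 3 was at 1.45 and Thy-1+CD24medCD49fhigh replicate 2 at 1.56. Of the markers that define luminal cells, Krt18, Epcam, Foxa1, Esr1, Pgr and Prom1 were called higher, Krt19 was not called, and Krt8 and Prlr were not in the table.

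**Figure D2:**
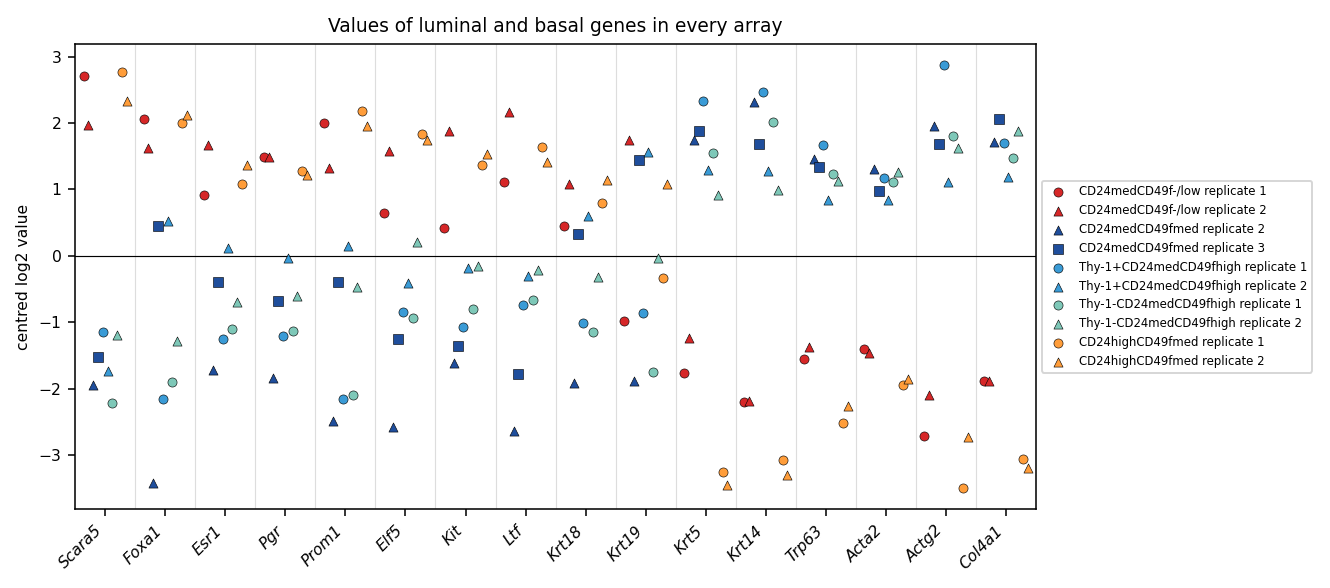
Centred log2 values of 16 luminal and basal genes in all 10 arrays, one point per array, with colour for the population and shape for the replicate number. The red CD24medCD49f-/low points lie above every blue or green basal point from Scara5 to Ltf and below every basal point from Krt5 to Col4a1, while in Krt19 they are split, at -0.99 and 1.75.

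Genes of luminal progenitors were also higher in these cells than in basal cells. Of 21 listed, 16 were in the table, 11 were called higher and 2 lower, against 18.3% and 27.5% of all features. The median difference was 1.6, with medians of 1.40 and 1.84 above the basal mean in luminal replicates 1 and 2. The list's centred median was 0.61 and 1.33 in the luminal arrays and 1.46 and 1.34 in the CD24highCD49fmed arrays. Between these luminal populations limma called 0 members. Replicate 2 alone gave 12 higher and 1 lower, with replicate 1 alone 8 and 3, and with array weights 6 and 1. Ltf, the iron-binding milk protein lactoferrin, was at 1.11 and 2.16 against -2.64 to -0.22 (median -0.70) (2.69 ± 0.44, adjusted p 8.78e-05). Cd14, a co-receptor for lipopolysaccharide, was at 0.86 and 2.0 against -2.33 to -0.11 (median -0.95) (2.47 ± 0.46, adjusted p 3.27e-04). Elf5, the regulator of alveolar fate, was at 0.64 and 1.58 against -2.58 to 0.20 (median -0.89) (2.08 ± 0.47, adjusted p 0.00158). Kit, the receptor of stem cell factor, was at 0.41 and 1.89 against -1.62 to -0.15 (median -0.94) (2.01 ± 0.46, adjusted p 0.00166). These genes had higher values in replicate 2 than in replicate 1, and both replicates exceeded all basal arrays. The members called lower were Slpi, a secreted protease inhibitor, and Itgb3, an integrin subunit. Slpi was at -1.67 and -0.98 against -0.84 to 1.73 (median 1.12) (-2.26 ± 0.48, adjusted p 9.90e-04).

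Genes of the apical membrane were higher, and milk genes less uniformly so. Of 22 listed genes of the apical membrane, mucins and ion transport, 14 were in the table. Of these 10 were called higher, against 18.3% of all features, and 0 lower (median difference 1.81). The count was 11 higher with replicate 2 alone, and 9 higher and 1 lower with replicate 1 alone. Muc15, a mucin of the milk fat globule membrane, was at 1.32 and 1.20 against -1.93 to 0.27 (median -1.33) (2.42 ± 0.49, adjusted p 6.65e-04). Clic6, a chloride channel protein, was at 0.61 and 1.77 against -1.63 to -0.34 (median -0.94) (2.13 ± 0.45, adjusted p 9.57e-04). Aqp5, a water channel, was at 0.88 and 1.55 against -1.96 to 0.36 (median -0.79) (2.05 ± 0.50, adjusted p 0.00284). The luminal arrays were above the basal range in each. Of 25 milk protein and milk fat genes, 13 were in the table and 5 were called higher, against 18.3% of all features. Their list medians were 0.26 and 1.63 above the basal mean in luminal replicates 1 and 2. Btn1a1, butyrophilin of the milk fat globule, was at 0.87 and 1.80 against -1.57 to -0.33 (median -0.88) (2.27 ± 0.44, adjusted p 4.58e-04). Lalba, the lactose synthase subunit α-lactalbumin, was at 0.29 and 1.89 against -1.57 to 0.03 (median -0.83) (1.79 ± 0.50, adjusted p 0.00749), and its call was lost with replicate 1 alone (adjusted p 0.112). With replicate 1 alone 2 milk genes were called, and with replicate 2 alone 8.

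Smooth muscle genes were lower without exception. All 16 of the 22 listed genes that were in the table were called lower, against 27.5% of all features, with a median difference of -2.35. Every one of them had both luminal arrays below all 6 basal arrays, against 28.4% of all features. Actg2, smooth muscle γ-actin, was at -2.72 and -2.10 against 1.11 to 2.88 (median 1.74) (-4.25 ± 0.47, adjusted p 2.10e-06), a 19.1-fold difference. Acta2, smooth muscle α-actin, was at -1.40 and -1.46 against 0.83 to 1.32 (median 1.15) (-2.54 ± 0.40, adjusted p 6.66e-05). Tagln, the actin cross-linking protein transgelin, was at -2.09 and -1.73 against 1.07 to 2.21 (median 1.77) (-3.59 ± 0.43, adjusted p 4.11e-06). The actins and transgelin were low in both luminal arrays, with no overlap with the basal ones. Cnn1, calponin, was at -1.48 and -1.29 against 0.62 to 2.17 (median 1.55) (-2.79 ± 0.45, adjusted p 7.82e-05). Mylk, the kinase that activates myosin, was at -1.35 and -1.25 against 0.91 to 1.87 (median 1.48) (-2.69 ± 0.41, adjusted p 5.31e-05). With replicate 2 alone 14 of the 16 remained called, and with replicate 1 alone all 16.

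Many smooth muscle genes are switched on by serum response factor, which binds a sequence called the CArG box. RefSeq promoter windows (GRCm38.p6, 300 bases across the gene's start) were matched by symbol for 13 of the 16 genes; Actg2, Tagln and Myh11 had none. A CArG box was in the windows of 2 of the 13, Myl9 and Cnn2, and in 1.81% of 27025 gene symbols with a window. It was in 2.97% of matched genes called lower, 1.48% of those called higher and 1.87% of those not called. Both strands were searched. A match is a description of the letters and not of a site in use. Only the exact form CCWWWWWWGG, where W is A or T, was searched for. Variant forms and boxes outside the window were not counted. Both windows are shown because they hold this form, which is in capitals.
Myl9: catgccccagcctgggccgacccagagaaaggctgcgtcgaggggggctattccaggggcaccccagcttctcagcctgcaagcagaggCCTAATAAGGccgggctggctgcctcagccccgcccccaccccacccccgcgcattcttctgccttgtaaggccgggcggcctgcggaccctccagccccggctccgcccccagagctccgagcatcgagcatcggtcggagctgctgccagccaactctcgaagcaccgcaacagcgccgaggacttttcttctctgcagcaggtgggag
Cnn2: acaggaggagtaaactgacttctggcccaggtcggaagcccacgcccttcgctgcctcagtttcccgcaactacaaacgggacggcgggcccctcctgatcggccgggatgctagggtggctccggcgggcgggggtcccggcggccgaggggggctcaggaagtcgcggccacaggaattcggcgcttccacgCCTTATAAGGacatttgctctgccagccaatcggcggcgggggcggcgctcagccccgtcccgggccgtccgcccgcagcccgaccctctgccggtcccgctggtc
The window of Myl9, which encodes a myosin regulatory light chain, lies on the plus strand of chromosome 2 at chr2:156775214-156775513. Myl9 was at -0.82 and -0.26 against 1.04 to 1.65 (median 1.43) (-1.88 ± 0.42, adjusted p 0.00145). The window of Cnn2, which encodes a second calponin, lies on the plus strand of chromosome 10 at chr10:79988350-79988649. Cnn2 was at -1.27 and -1.31 against 0.35 to 1.25 (median 0.99) (-2.21 ± 0.41, adjusted p 3.25e-04). In both genes the luminal arrays were below all basal arrays.

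Keratins and regulators of basal cells were lower. Of 28 listed, 27 were in the table, 21 were called lower, against 27.5% of all features, and 0 higher. The median difference was -2.06, with medians of -2.37 and -2.04 relative to the basal mean in luminal replicates 1 and 2. Replicate 2 alone gave 19 lower and replicate 1 alone 22. Krt14, the basal partner of Krt5, was at -2.20 and -2.19 against 1.00 to 2.47 (median 1.85) (-3.99 ± 0.45, adjusted p 2.11e-06). Krt5 itself was at -1.77 and -1.24 against 0.92 to 2.33 (median 1.65) (-3.13 ± 0.43, adjusted p 1.65e-05). Krt15 was at -2.78 and -1.70 against 0.80 to 2.82 (median 1.49) (-3.81 ± 0.46, adjusted p 4.11e-06) and Krt17 at -1.88 and -1.45 against 1.06 to 2.35 (median 1.64) (-3.37 ± 0.44, adjusted p 8.45e-06). The luminal arrays were nearly equal in Krt14, while replicate 1 was the lower in Krt15. Trp63, the regulator of basal identity, was at -1.55 and -1.37 against 0.84 to 1.68 (median 1.29) (-2.74 ± 0.41, adjusted p 4.02e-05). Irx4, a homeobox factor, was at -2.03 and -2.03 against 0.56 to 2.24 (median 1.39) (-3.41 ± 0.45, adjusted p 9.75e-06). The members that were not called were Bnc1, Krt16, Lgr5, Nfib, Ngfr and Procr, a Wnt target and endothelial protein C receptor. Procr was at -0.03 and -0.39 against -0.05 to 1.10 (median 0.34) (-0.65 ± 0.40, adjusted p 0.172).

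The basement membrane was lower as a group too. Of 24 listed genes, 18 were in the table, 15 were called lower, against 27.5% of all features, and 0 higher. The median difference was -2.06. Replicate 2 alone gave 14 lower and 1 higher, and replicate 1 alone 16 lower. Col4a1 was at -1.88 and -1.88 against 1.19 to 2.06 (median 1.71) (-3.55 ± 0.40, adjusted p 2.24e-06), and its partner in collagen IV, Col4a2, at -1.92 and -2.40 against 1.19 to 2.20 (median 1.61) (-3.85 ± 0.41, adjusted p 2.01e-06). Lama1, a laminin chain, was at -1.45 and -2.20 against 0.59 to 1.88 (median 1.40) (-3.20 ± 0.43, adjusted p 1.31e-05). Col17a1, a collagen of hemidesmosomes, was at -2.07 and -1.68 against 0.88 to 2.0 (median 1.53) (-3.39 ± 0.42, adjusted p 5.77e-06). In each of these the luminal arrays were below all basal arrays. The 3 not called were Fras1, Lama5 and Npnt. Lama5, chosen for its split after its values were seen, was at -1.46 and 1.37 in the luminal arrays and at -0.23 to 0.77 (median 0.10) in the basal arrays.

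Other genes were also among the largest decreases. Vcan, the proteoglycan versican, had the largest difference of any named gene, at -2.55 and -2.66 against 1.40 to 2.71 (median 1.62) (-4.45 ± 0.43, adjusted p 9.07e-07), a 21.8-fold difference. Serpinb11, a serine protease inhibitor homologue, was at -2.35 and -2.60 against 1.29 to 2.93 (median 1.51) (-4.19 ± 0.47, adjusted p 2.11e-06). Matn2, matrilin 2, was at -2.18 and -2.37 against 1.35 to 1.95 (median 1.74) (-3.98 ± 0.40, adjusted p 1.40e-06). All luminal values of these 3 genes were below -2. Serpinf1, pigment epithelium derived factor, was at -2.38 and -2.02 against 1.10 to 2.16 (median 1.77) (-3.91 ± 0.40, adjusted p 1.66e-06). Rnase4 and Ppic, a ribonuclease and a cyclophilin, had differences of -3.87 and -3.79.

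Integrin subunits were lower, and more so in replicate 1. Of 15 listed, 8 were in the table and 7 were called lower, against 27.5% of all features. The median difference was -1.55, with -2.0 in replicate 1 and -0.87 in replicate 2. Itga6 encodes CD49f, on which the cells were sorted, so its difference is no independent result (-2.27 ± 0.41, adjusted p 2.40e-04). Itga9 was at -0.72 and -1.29 against 0.28 to 1.20 (median 1.10) (-1.99 ± 0.41, adjusted p 8.39e-04). Itgb1, the shared β1 subunit, was at -1.88 and -0.16 against 0.19 to 1.22 (median 0.50) (-1.6 ± 0.46, adjusted p 0.00838). Itgb3 was at -1.94 and -0.39 against 0.01 to 0.96 (median 0.52) (-1.66 ± 0.46, adjusted p 0.00712). The calls of Itgb1 and Itgb3 were lost with replicate 2 alone, with adjusted p of 0.234 and 0.169, and 3 integrins were then called in all. Array weights left 2.

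Signalling genes moved in both directions. Of 25 listed Wnt genes 10 were in the table, with 6 called lower and 1 higher, against 27.5% and 18.3% of all features. These counts were 3 and 0 with array weights. The list's median relative to the basal mean was -1.79 in luminal replicate 1 and -1.44 in replicate 2. Wif1, a secreted Wnt inhibitor, was at -2.25 and -2.30 against 1.33 to 2.53 (median 1.66) (-4.11 ± 0.43, adjusted p 1.66e-06). Fzd7, a Wnt receptor, was at -1.81 and -1.62 against 0.24 to 1.32 (median 0.98) (-2.60 ± 0.42, adjusted p 8.92e-05). Dkk3, a secreted protein of the Dickkopf family, was at -1.15 and -1.38 against 0.38 to 1.84 (median 0.92) (-2.28 ± 0.47, adjusted p 8.03e-04). Both an inhibitor and a receptor of the pathway were thus among the members called lower. The ligand Wnt6 was lower (-1.12 and -0.72 in the luminal arrays, difference -1.72 ± 0.43, adjusted p 0.0032) and the ligand Wnt5b higher (1.03 and 0.54 in the luminal arrays, difference 1.37 ± 0.42, adjusted p 0.0137). Of 18 Notch genes 5 were in the table. The ligands Dll1 (-1.25 and -1.55 in the luminal arrays, difference -2.63 ± 0.43, adjusted p 9.37e-05) and Jag2 (-1.31 and -1.07 in the luminal arrays, difference -2.25 ± 0.42, adjusted p 3.27e-04) were lower, and the targets Hey1 (0.12 and 1.38 in the luminal arrays, difference 1.43 ± 0.44, adjusted p 0.0133) and Hey2 (0.52 and 0.64 in the luminal arrays, difference 1.33 ± 0.40, adjusted p 0.0118) higher. Of 14 EGF family genes 3 were in the table. Egfr, a receptor, was lower (-1.32 and -0.48 in the luminal arrays, difference -1.46 ± 0.44, adjusted p 0.0109), as was the ligand Nrg1 (-0.49 and -0.89 in the luminal arrays, difference -1.23 ± 0.40, adjusted p 0.019). Erbb3, a neuregulin receptor, was at 0.14 and 2.04 against -1.30 to 0.27 (median -0.52) (1.66 ± 0.51, adjusted p 0.0127), and its call was lost with replicate 1 alone (adjusted p 0.234). The calls of Hey1 and Nrg1 were also lost with replicate 1 alone (0.144 and 0.0575), and those of Wnt5b and Egfr with replicate 2 alone (0.0782 and 0.108). With array weights 2 Notch genes and 0 EGF family genes were called.

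Among the other genes that the study sorted on or named, Aldh1a1, a retinaldehyde dehydrogenase, was at -1.58 and -1.70 against -0.20 to 2.54 (median 1.13) (-2.73 ± 0.48, adjusted p 1.84e-04). Rarres2, which encodes chemerin, was at -0.80 and -0.64 against -0.24 to 1.63 (median 0.53) (-1.36 ± 0.40, adjusted p 0.00979). Both genes were lower, although the Thy-1- arrays of Rarres2, at -0.24 and -0.09, came near the luminal ones. Thy1 was at -0.36 and -0.63 against -0.54 to 2.59 (median 0.40) and was not called (-1.02 ± 0.49, adjusted p 0.09). The Thy-1+ and Thy-1- populations were sorted on this antigen, so the basal mean of Thy1 is set in part by the gates. limma called Thy1 lower against Thy-1+CD24medCD49fhigh (adjusted p 0.0173). It was not called against Thy-1-CD24medCD49fhigh (0.662) or CD24medCD49fmed (0.379). Cdkn1a, the cell cycle inhibitor p21, was at -0.79 and 0.14 against -0.26 to 0.97 (median 0.52) and was not called (-0.79 ± 0.42, adjusted p 0.124). The table held neither Cd24a nor Rarres1.

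Genes of G2 and mitosis were lower on average in the luminal arrays, but their calls rested on few arrays. Of 30 listed genes of G2 and mitosis 20 were in the table and 11 were called lower, against 27.5% of all features. The median difference was -1.16. The list median was -1.29 and -0.67 in luminal replicates 1 and 2, and -0.81 in basal CD24medCD49fmed replicate 2. In 9 of the 20 genes both luminal arrays were below all basal arrays, against 28.4% of all features. Luminal replicate 1 was below all basal arrays in 18 genes and replicate 2 in 9. Top2a, the topoisomerase of dividing cells, was at -1.87 and -1.31 against -0.95 to 1.79 (median 0.05) (-1.84 ± 0.48, adjusted p 0.00441). Cep55, a protein of the final cut between daughter cells, was at -1.77 and -1.08 against -0.70 to 1.24 (median 0.11) (-1.58 ± 0.52, adjusted p 0.0182). Thy-1-CD24medCD49fhigh replicate 2 was the highest basal array in both genes, and its list median of 1.26 was the highest of the 10 arrays. Against CD24medCD49fmed alone limma called neither Top2a nor Cep55 (adjusted p 0.158 and 0.0973). With luminal replicate 2 alone 1 of the 20 genes was called (Cep55 had an adjusted p of 0.123), and without the pair of basal arrays named above 1 was. Quantile normalisation left 3 and array weights 0. Of 23 listed S phase genes 10 were in the table and 2 were called lower, the ribonucleotide reductase subunits Rrm2 (-1.30 and -1.12 in the luminal arrays, difference -1.44 ± 0.44, adjusted p 0.012) and Rrm1 (-1.51 and -0.11 in the luminal arrays, difference -1.10 ± 0.44, adjusted p 0.0478). This share is below the 27.5% of all features. Replicate 2 alone left 1 called (Rrm1 had an adjusted p of 0.548), and with array weights or without the pair of basal arrays 0 were.

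Markers of other cell types were examined as well. Of 21 fibroblast genes 12 were in the table, with 6 called lower and 1, Col6a3, higher, against 27.5% and 18.3% of all features. The list medians were -0.57 and -0.77 in the luminal arrays and from 0.08 to 1.53 in the basal arrays. Mmp2, a gelatinase, was at -2.34 and -2.32 against 1.10 to 2.37 (median 1.53) (-3.94 ± 0.43, adjusted p 2.10e-06). Postn, periostin, was at -1.97 and -1.67 against 1.11 to 2.22 (median 1.77) (-3.51 ± 0.47, adjusted p 1.20e-05). The fibrillar collagen gene Col3a1 was at -1.08 and -1.35 against -1.05 to 2.48 (median 1.80) (-2.28 ± 0.41, adjusted p 2.13e-04), and both Thy-1- arrays, at -0.84 and -1.05, were near the luminal ones. Of 16 Schwann cell genes 9 were in the table, with 5 called lower and 1, Erbb3, higher, against the same shares of all features. The myelin genes Pmp22 (-2.30 and -1.86 in the luminal arrays, difference -3.36 ± 0.43, adjusted p 8.20e-06) and Mbp (-1.68 and -1.61 in the luminal arrays, difference -2.82 ± 0.41, adjusted p 3.28e-05) were among the former. Fibroblast counts were the same with either luminal array alone. With either luminal array alone 5 Schwann cell genes were called lower. Pericyte genes had 2 of 7 called lower, Pdgfrb (-1.0 and -1.01 in the luminal arrays, difference -1.98 ± 0.47, adjusted p 0.00221) and Abcc9 (-0.46 and -0.84 in the luminal arrays, difference -1.06 ± 0.41, adjusted p 0.0401), and adipocyte genes 1 of 4, Fabp4 (-0.51 and -0.40 in the luminal arrays, difference -1.40 ± 0.50, adjusted p 0.0282). Both shares are near the 27.5% of all features called lower. The call of Abcc9 was lost with replicate 1 alone (adjusted p 0.108) and that of Fabp4 with replicate 2 alone (0.084).

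Of the 17 epidermal keratinocyte genes 10 were in the table and 2, Krt77 (-1.25 and -0.87 in the luminal arrays, difference -1.93 ± 0.71, adjusted p 0.0326) and Krt10 (-0.99 and -0.94 in the luminal arrays, difference -1.62 ± 0.54, adjusted p 0.0203), were called lower. This is below the 27.5% of all features. Both calls were lost with replicate 2 alone (adjusted p 0.128 and 0.0609). Without the pair of basal arrays named above, 8 were called lower. Their list median was 1.58 in CD24medCD49fmed replicate 2 and 1.99 in Thy-1+CD24medCD49fhigh replicate 1, and between -0.73 and -0.04 in the other basal arrays. The luminal medians were -0.48 and -0.56. None of 16 endothelial genes was in the table, and of 22 leukocyte genes only Lcp1 was, called higher (0.56 and 1.23 in the luminal arrays, difference 1.6 ± 0.48, adjusted p 0.0109, and adjusted p 0.0509 with replicate 1 alone). The erythroid gene Hba-a2, the 1 of 11 in the table, was at -1.80 and 0.99 in the luminal arrays and at 0.02 to 1.22 (median 0.73) in the basal arrays, and was not called. The part of these cell types in the differences was not tested.

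The luminal arrays contradicted each other in a sizeable set of genes. In 198 named genes the arrays lay on opposite sides of the basal range, and none of these was called with both. Replicate 1 was below and replicate 2 above the range in 176 of them, and the reverse held in 22. The arrays differed by more than 2 log2 units in 12.3% of named genes, with replicate 1 lower in 293 and higher in 21. Fkbp4, a co-chaperone of steroid receptors, was at -2.71 and 1.19 against 0.59 to 1.00 (median 0.71). Ssr4, a subunit of the translocon-associated complex, was at -2.92 and 0.84 against -0.35 to 0.55 (median 0.25). Arpc4, of the actin nucleating complex, was at -2.44 and 1.00 against 0.31 to 0.87 (median 0.51). All of these were below every basal array in replicate 1 and above every one in replicate 2. Bsg, a surface glycoprotein that chaperones lactate transporters, was at -2.09 and 1.23 against 0.02 to 0.76 (median 0.46). Cdk4, a kinase of the G1 phase, was at -2.33 and 0.92 against -0.05 to 0.73 (median 0.51). The ribosomal gene Rpl13a was at -2.05 and 1.09 against 0.05 to 0.75 (median 0.37).

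Genes that ran the other way had smaller gaps. Prol1 was at 1.61 and -1.5 against -0.50 to 0.25 (median -0.10), Foxq1, a forkhead factor, at 1.34 and -1.27 against -0.93 to 0.15 (median -0.60), and Sugp2 at 1.19 and -1.03 against -0.68 to -0.01 (median -0.28). The result of limma changed direction in 8 genes, Bcl2l1, Ccdc12, Ccs, Ctsd, Hk1, Mvp, Prol1 and Shisa5, which were called with either array alone and in opposite directions. These were picked out after their values were seen. Bcl2l1, an inhibitor of apoptosis, was at -1.52 and 1.76 against -0.23 to 0.94 (median 0.30).

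**Figure D3:**
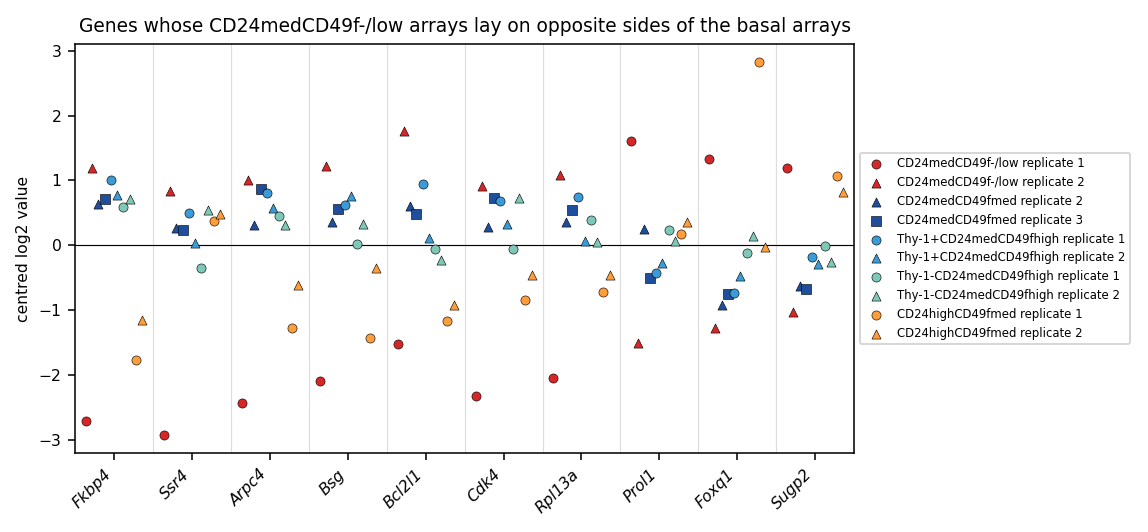
Centred log2 values of 10 genes in all 10 arrays, one point per array, with colour for the population and shape for the replicate number. In the genes from Fkbp4 to Rpl13a CD24medCD49f-/low replicate 1 (red circle) is below and replicate 2 (red triangle) above all basal arrays, as in Fkbp4 at -2.71 and 1.19, and in Prol1, Foxq1 and Sugp2 the order is reversed.

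Genes of protein synthesis and energy supply were among those that split, in 4 lists that were chosen after their values were seen and were not tested. The median of 10 cytosolic ribosomal protein genes was -1.88 relative to the basal mean in replicate 1 and 0.38 in replicate 2. The median of 12 genes of the respiratory chain and ATP synthase was -1.80 and 0.66, and that of 9 proteasome subunits was -1.14 and 0.29. In 7 genes of folding and translocation in the endoplasmic reticulum it was -2.86 and 0.44. limma called 3 of these 7 genes lower, against 27.5% of all features, and no gene of the other lists. Of the 7 genes, 6 were below all basal arrays in replicate 1 and 0 in replicate 2. The basal arrays lay close together in these lists, for example between 0.16 and 0.60 for ribosomal genes. In the CD24highCD49fmed arrays the ribosomal median was -0.73 and -0.31.

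Stress genes were lower in replicate 1 than in replicate 2. Of 20 immediate early genes 6 were in the table and 3 were called lower, and of 12 heat shock genes 4 were and 3 were called lower. Over all features 27.5% were called lower. With array weights 2 immediate early genes and 0 heat shock genes were called lower. The medians relative to the basal mean were -1.80 in replicate 1 and -0.13 in replicate 2 for immediate early genes, and -1.88 and -0.53 for heat shock genes. Egr3, an immediate early transcription factor, was low in both, at -3.0 and -1.86 against 0.53 to 1.56 (median 1.01) (-3.50 ± 0.45, adjusted p 8.20e-06). Nr4a1, an orphan nuclear receptor, was at -2.04 and 0.26 against 0.27 to 0.58 (median 0.45) (-1.32 ± 0.49, adjusted p 0.0335). Bag3, a co-chaperone, was at -1.99 and -0.06 against -0.01 to 1.13 (median 0.62) (-1.62 ± 0.48, adjusted p 0.0101). Both calls were lost with replicate 2 alone (adjusted p 0.806 and 0.306). Socs3, an inhibitor of cytokine signalling, was called (-2.23 ± 0.63, adjusted p 0.00783) from luminal values of -3.07 and 0.57, and its adjusted p was 0.573 with replicate 2 alone. Fgf13, called higher (2.04 ± 0.56, adjusted p 0.00639) from 2.58 and -0.39, had an adjusted p of 0.405 with replicate 2 alone.

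Of 22 interferon response genes 10 were in the table and 2 were called higher, the immunity-related GTPase Iigp1 (1.33 and 1.11 in the luminal arrays, difference 2.22 ± 0.53, adjusted p 0.00253) and the RNA sensor Ifih1 (1.12 and 0.56 in the luminal arrays, difference 1.78 ± 0.50, adjusted p 0.0077). This is close to the 18.3% of all features called higher. The call of Ifih1 was lost with replicate 2 alone (adjusted p 0.0527). The list's median difference was 0.21. Il33, a nuclear cytokine, was also called higher (2.26 ± 0.89, adjusted p 0.0436). Its luminal values were 1.16 and 1.21, against -3.67 to 1.55 (median -1.43), so that both were within the basal range, and the call was lost with either luminal array alone (adjusted p 0.114 with replicate 2 and 0.078 with replicate 1).

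**Figure D4:**
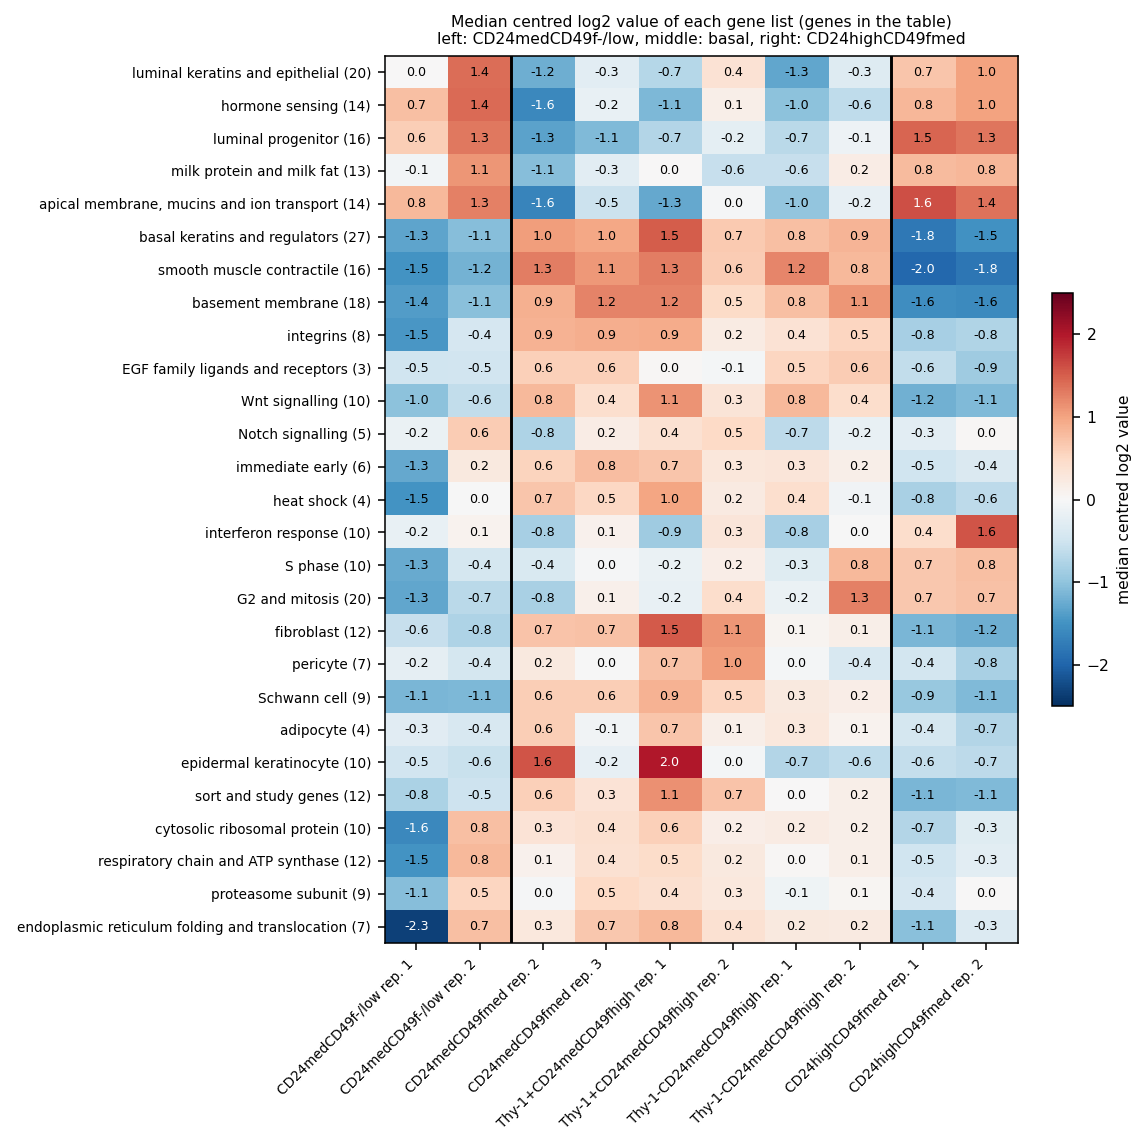
Median centred log2 value of each gene list (rows, with the number of its genes in the table) in each of the 10 arrays (columns), from blue for low to red for high. Smooth muscle genes are at -1.49 and -1.17 in the luminal arrays and from 0.64 to 1.29 in the basal arrays, while ribosomal genes are at -1.62 in luminal replicate 1 and 0.75 in replicate 2.

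Against the basal populations taken singly, CD24medCD49f-/low cells differed from CD24medCD49fmed in 1032 features (35.2%), from Thy-1+CD24medCD49fhigh in 766 (26.1%) and from Thy-1-CD24medCD49fhigh in 798 (27.2%). These comparisons share the luminal arrays. Among named genes, 133 were called higher and 390 lower against each of the 3 populations. Whether the populations differed in their distance from luminal cells was not tested. Each of these counts moved with single arrays. Without CD24medCD49fmed replicate 2 the count against that population was 389, without Thy-1+CD24medCD49fhigh replicate 1 it was 111, and without Thy-1-CD24medCD49fhigh replicate 1 or 2 it was 389 or 430. Without luminal replicate 2 the counts were 1711, 1623 and 1527.

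Compared with CD24highCD49fmed, the other luminal population, CD24medCD49f-/low cells differed in 6 features (0.205%), with 451 at an unadjusted p under 0.05. Basal genes were the ones higher. Myl9 was at -0.82 and -0.26 in CD24medCD49f-/low and -3.83 and -3.14 in CD24highCD49fmed (2.95 ± 0.51, adjusted p 0.0179). Tgfb1i1, a focal adhesion co-activator, was at -0.19 and -0.62 and -3.29 and -3.31 (2.89 ± 0.51, adjusted p 0.0179). Sparc, a matrix glycoprotein, was at -1.48 and -1.11 and -3.81 and -3.49 (2.36 ± 0.49, adjusted p 0.0458). Ism1, a secreted isthmin, was at -1.21 and -0.84 and -3.78 and -3.18 (2.46 ± 0.51, adjusted p 0.0458). All 4 remained below the basal arrays in both luminal populations. The genes that were lower act in cell division. Ect2, an activator of the cytokinetic ring, was at -1.53 and -1.39 and 1.54 and 1.67 (-3.07 ± 0.62, adjusted p 0.0458). Spc25, of the kinetochore, was at -1.52 and -1.25 and 1.52 and 1.37 (-2.83 ± 0.56, adjusted p 0.0458). The count was 295 without luminal replicate 1 and 118 without luminal replicate 2. It was 0 when either CD24highCD49fmed array, or any 1 of the Thy-1+ and Thy-1- arrays, was left out.

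**Figure D5:**
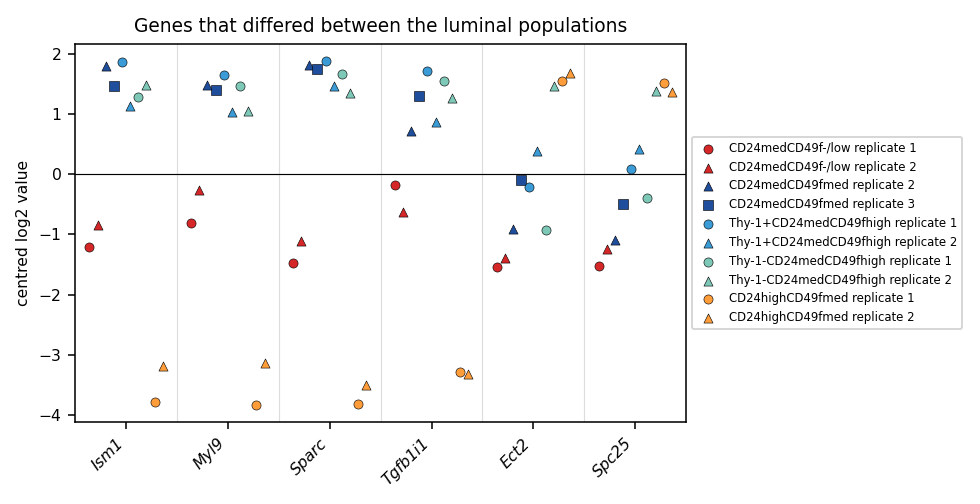
Centred log2 values of the 6 genes that limma called between CD24medCD49f-/low and CD24highCD49fmed in all 10 arrays, one point per array, with colour for the population and shape for the replicate number. Myl9 is at -0.82 and -0.26 in the red CD24medCD49f-/low points and at -3.83 and -3.14 in the orange CD24highCD49fmed points, and Ect2 shows the reverse order.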

How the data were processed

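The authors deposited 1 table of log2 intensities from Affymetrix whole-genome mouse arrays, 3663 probe sets by 10 arrays. Per the study's methods, arrays were normalised by robust multichip average, probe sets of low level or without a 4-fold range between arrays were removed, and each was centred on its mean. The submitters' processing notes name RMA and GCRMA, and which applied to this table is not given in the sources used here. Of the probe sets, 3291 had 1 gene symbol, 75 several and 297 none. Those of a gene were averaged, and the others were tested alone without a name.

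All 10 arrays were fitted with a mean per population in limma 3.58.1 (R 4.3.3), with 5 residual and 16.5 prior degrees of freedom. The 2 arrays per population limit precision, and background cannot be read from centred values. Genes were named if they were among the 12 largest called differences per direction without overlap of luminal and basal arrays, the 4 largest called per list, genes the study sorted on or named, the 10 per direction with luminal arrays farthest apart on opposite sides of the basal range, or the 6 largest per direction lost without 1 luminal array. Esr1, Pgr, Kit, Krt5 and Trp63 are defining markers. Cnn2, Hba-a2, Igf1r, Lama5, Wnt5b and the genes called between luminal populations were named in addition, after their values were seen. The members, lists and tests were chosen with earlier results of these data known. Alternatives covered array scaling, array weights, robust moderation, the arrays fitted, a replicate block, a minimum difference of 1, single probe sets, rank products and each array left out.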

Additional observations from a re-analysis of the deposited data

Results flagged for a closer look

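In 6 genes the difference between the luminal populations passed the test of that difference itself. CD24medCD49f-/low minus CD24highCD49fmed was 2.95 ± 0.51, adjusted p 0.0179 for Myl9 and 2.89 ± 0.51, adjusted p 0.0179 for Tgfb1i1. It was 2.36 ± 0.49, adjusted p 0.0458 for Sparc and 2.46 ± 0.51, adjusted p 0.0458 for Ism1. It was -3.07 ± 0.62, adjusted p 0.0458 for Ect2 and -2.83 ± 0.56, adjusted p 0.0458 for Spc25 (limma, ± SE, 2 arrays per population). With CD24highCD49fmed replicate 1 or 2 left out, 0 features passed.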

How the results depend on the processing

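Leaving out each array in turn moved the count against basal cells between 1004 and 1874, its higher part between 379 and 671 and its lower part between 565 and 1203. The lowest higher count came without Thy-1-CD24medCD49fhigh replicate 1, and the lowest count against each basal population came without an array of that population. The counts ranged from 389 to 1711 against CD24medCD49fmed, from 111 to 1623 against Thy-1+CD24medCD49fhigh, from 389 to 1527 against Thy-1-CD24medCD49fhigh and from 0 to 295 against CD24highCD49fmed. Array weights gave 513 features against basal cells (147 higher, 366 lower), 591, 209 and 315 against the basal populations in that order, and 0 against CD24highCD49fmed. Rank products gave 249 (115 higher, 134 lower), and the same call against each of the 3 basal populations 593 (166 higher, 427 lower). Against CD24highCD49fmed, array medians set to 0 gave 20, and quantile normalisation, only the arrays compared, and leaving out 2 basal arrays (chosen after seeing the data) each gave 0. Array medians set to 0 gave 735 higher and 743 lower against basal cells and quantile normalisation 752 and 711, with the median of all features at -0.014 and 0.040 in place of -0.17. Some directions turned, and the cause was not tested. Apart from Krt19, the genes that follow were named because their luminal arrays lay on opposite sides of the basal range. In these genes a turn without 1 of the luminal arrays follows from that choice. Without luminal replicate 1 the difference was 0.29 for the erythroid list (-2.49 without luminal replicate 2), and in the same order -1.40 (1.72) for Prol1, -0.80 (1.81) for Foxq1, -0.69 (1.53) for Sugp2, -1.02 for AI467606, -0.48 (1.42) for Fgd4, -0.71 (1.09) for Idi1, -0.49 (1.27) for Exosc8, 0.45 (-3.45) for Fkbp4, 0.63 (-3.13) for Ssr4, 0.45 (-2.99) for Arpc4, 0.79 (-2.53) for Bsg, 1.15 (-2.12) for Rnf114, 0.47 (-2.78) for Cdk4, 1.15 (-2.08) for Per1, 0.73 (-2.41) for Rpl13a and 1.45 (-1.83) for Bcl2l1. Without luminal replicate 2 it was -0.73 for Krt19 (2.00 without luminal replicate 1), and likewise 0.70 (-1.26) for Ikbip, 0.70 (-1.24) for Aif1l, 0.93 (-0.97) for Fmnl2 and -1.41 (1.87) for Ccdc12. Fmnl2 was at 0.14 with array medians set to 0, 0.055 after quantile normalisation, 0.073 without CD24medCD49fmed replicate 2, 0.037 without Thy-1+CD24medCD49fhigh replicate 1 and 0.067 without Thy-1-CD24medCD49fhigh replicate 2. AI467606 was at -0.15 without Thy-1+CD24medCD49fhigh replicate 1 and -0.11 without Thy-1-CD24medCD49fhigh replicate 2, and Bcl2l1 at 0.048 after quantile normalisation. Of 126 named genes, 95 kept their direction and side of the threshold with array weights. No such count is given without a luminal array. Some genes were named because their luminal arrays disagreed or because their call was lost without 1 of them.

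The labels do not say whether arrays with the same replicate number belong together. The correlation of replicate 1 minus replicate 2 between populations ranged from -0.198 to 0.521. The highest value was that between CD24medCD49f-/low and CD24highCD49fmed, and the value between the Thy-1+ and Thy-1- populations was 0.3. Whether these arrays were paired was not tested. With the replicate number as a block 1254 features were called against basal cells (500 higher, 754 lower) and 33 against CD24highCD49fmed, with Prol1 at -0.089 and AI467606 at -0.082.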

Other observations

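In 8 genes both CD24medCD49f-/low arrays were below, and both CD24highCD49fmed arrays above, every basal array: Ccdc86, Chek1, Ect2, Fam111a, Grsf1, Hells, Ier3ip1 and Pygl. Of these Ect2 passed the test of the difference between the luminal populations. No gene showed the reverse order.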
